A study of Homo sapiens with 9 samples.

Results

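The comparison concerns 2 human leukaemia cell lines, K562 and U937, each measured on 3 Illumina bead arrays. Its members are the 6 arrays labelled K562 or U937 out of 9 in the series, chosen by cell line alone, and all genes with a symbol on the arrays. The other 3 arrays hold NB4, an acute promyelocytic line, which entered the statistical model and is otherwise given only as a reference level. K562 came from chronic myeloid leukaemia at the blast crisis stage, carries the BCR::ABL1 fusion kinase and can make haemoglobin. U937 was derived from a histiocytic lymphoma, carries the PICALM::MLLT10 fusion and is used as a model of immature monocytes. The labels call all 3 lines AML (acute myeloid leukaemia) lines. Each line had 1 untreated array, 1 array after MS-275 (entinostat) and 1 after SAHA (vorinostat), each inhibitor of histone deacetylases (HDACs) at 5 µM for 6 h. The labels do not say whether untreated cells received DMSO, the solvent of the inhibitors. The question was which differences between the lines were present under all 3 treatments.

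Every line and treatment was 1 culture on 1 array, so the 3 treatment pairs served as replicates of the line difference. The p-values below therefore measure the spread over treatments and not the spread between cultures, and each line stands for itself and not for a lineage. Levels are background-corrected, quantile-normalized log2 intensities, and a difference is the K562 level minus the U937 level on that scale. Where 3 levels follow each other they stand in the order untreated, MS-275 and SAHA. In a bulk RNA sample, fewer cells that express a gene and less of its RNA per cell cannot be told apart.

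Erythroid cells build haemoglobin from alpha-type and beta-type globin chains, and separate genes of both clusters serve the embryo, the fetus and the adult. GATA1, with its partners FOG1 (ZFPM1), TAL1 and KLF1, switches on globin, haem and red cell membrane genes. In the myeloid branch PU.1 (SPI1), CEBPA and IRF8 direct the genes of granule proteases, phagocyte receptors and antigen presentation. GATA1 and PU.1 bind to and restrain each other.

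The upstream stretches of 5 genes of both programmes are printed to show the letters that these regulators recognise. RHAG, KLF1 and ALAS2 were higher in K562, and PRTN3 and ALOX5AP were higher in U937. The sequences are the 250 bases before the start of the gene, 5′ to 3′ on the strand of the gene, from RefSeq on GRCh38.p14. They lie at chr6:49636840-49637089 (minus strand), chr19:12887202-12887451 (minus), chrX:55030978-55031227 (minus), chr19:840749-840998 (plus) and chr13:30713235-30713484 (plus), in the order of the lines. Capitals mark a GATA motif (AGATAA or TGATAA, on either strand) in the first 3 genes and a PU.1 motif (GAGGAAGT, on either strand) in the last 2.
RHAG: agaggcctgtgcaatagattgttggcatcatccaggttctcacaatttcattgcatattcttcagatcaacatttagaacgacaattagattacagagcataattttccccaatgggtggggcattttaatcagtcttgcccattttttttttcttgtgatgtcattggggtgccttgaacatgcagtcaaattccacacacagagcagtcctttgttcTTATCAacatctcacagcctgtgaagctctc
KLF1: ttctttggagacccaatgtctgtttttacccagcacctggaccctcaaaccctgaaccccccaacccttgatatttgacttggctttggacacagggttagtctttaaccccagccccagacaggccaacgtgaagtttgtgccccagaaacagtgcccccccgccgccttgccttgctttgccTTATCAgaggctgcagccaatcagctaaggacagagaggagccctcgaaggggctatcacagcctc
ALAS2: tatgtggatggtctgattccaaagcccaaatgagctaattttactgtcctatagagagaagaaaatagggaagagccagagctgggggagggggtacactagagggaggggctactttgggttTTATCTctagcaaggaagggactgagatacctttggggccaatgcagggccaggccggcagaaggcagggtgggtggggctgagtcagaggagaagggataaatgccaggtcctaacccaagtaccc
PRTN3: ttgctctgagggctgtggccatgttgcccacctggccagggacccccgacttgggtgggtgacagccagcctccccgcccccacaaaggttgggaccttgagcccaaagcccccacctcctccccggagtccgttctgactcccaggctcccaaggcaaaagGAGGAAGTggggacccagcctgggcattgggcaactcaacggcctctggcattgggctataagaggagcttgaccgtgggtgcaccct
ALOX5AP: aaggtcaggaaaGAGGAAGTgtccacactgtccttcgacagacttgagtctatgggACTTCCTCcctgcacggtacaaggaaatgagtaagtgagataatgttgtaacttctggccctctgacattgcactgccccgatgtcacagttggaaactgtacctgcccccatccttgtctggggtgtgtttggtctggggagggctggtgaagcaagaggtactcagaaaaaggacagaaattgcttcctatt
The GATA match began 31 bases before the start of RHAG, 66 before that of KLF1 and 127 before that of ALAS2. The PU.1 match began 88 bases before the start of PRTN3, and ALOX5AP held 2 matches, at 238 and 194 bases, besides an AGATAA in lower case. The 5 genes were chosen after their values and letters were seen. Of the 27305 promoters that RefSeq gave, 14.9% held a GATA match and 2.13% a PU.1 match. Of the tested genes, 8912 had a promoter in the table, and 7.64% and 2.26% of these held the motifs. Among genes at least 2-fold higher in K562 in all 3 pairs the shares were 10.6% (95 of 896) for GATA and 1.9% (17) for PU.1. Among those higher in U937 they were 9.24% (88 of 952) and 3.57% (34). These are counts of letters and do not show binding.

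The arrays named 16577 genes, and 10766 of them were tested because a probe was detected on at least 3 of the 6 arrays at a detection p under 0.05. Between 53.3% and 57.3% of the 22177 probes were detected on each of these arrays. The correlation between arrays was 0.948 to 0.967 within a line and 0.72 to 0.786 between K562 and U937. Of the tested genes 6004 (55.8%) differed between the lines in the limma model at an adjusted p under 0.05. They divided into 3106 genes (28.9%) higher in K562 and 2898 (26.9%) higher in U937, and 5987 of the 6004 had the same sign in all 3 pairs. The counts given below for each gene list are to be read beside both shares. The median standard error of a difference was 0.17 and the median difference over all genes was 0.05.

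A stricter set of 2284 genes (21.2%) passed the test and was also at least 2-fold apart in the same direction under each treatment. It held 1091 genes (10.1%) higher in K562 and 1193 (11.1%) higher in U937. The same rule on the authors' own log2 values, which have no background correction, gave 1561 genes, and all of these were among the 2284. At least 16-fold differences in this set numbered 207 towards K562 and 203 towards U937. On the edge of the rule stood SLC4A1 and TMEM79, whose smallest pair differences were 1 and 1.001, inside, and REEP6 at 0.999, outside. A gene undetected in a line entered the test only through the other line, which fixed its direction. This holds for 18 of the 45 monocyte receptors, 9 of the 29 granule genes, 8 of the 12 class II genes, 6 of the 14 HOX genes and 5 of the 9 globins tested below. It also holds for 4 of the 6 chromosome 9 genes, 3 of the 15 megakaryocyte genes and 2 of the 16 class I genes. Of the 22 myeloid regulators 3 entered only through U937 and 1 only through K562. Of the 11 eicosanoid genes 3 entered only through U937 and 1 only through K562. Among named genes with a plain fold, the lower line was detected on 1 array for HBA1, CD36, HOXB9, AZU1, HLA-B, CDKN1C and IFIT1. It was detected on 2 for HBG1, KEL, ALAS1, BCL11A, CEBPA, GFI1, RUNX3, CSF1R, ITGAM, HOXB5 and HOXB6, so these folds rest partly on levels not above background. Taken 1 pair at a time, with no test, 3315 genes were at least 2-fold apart in untreated cells, 3685 with MS-275 and 3198 with SAHA.

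**Figure D1:**
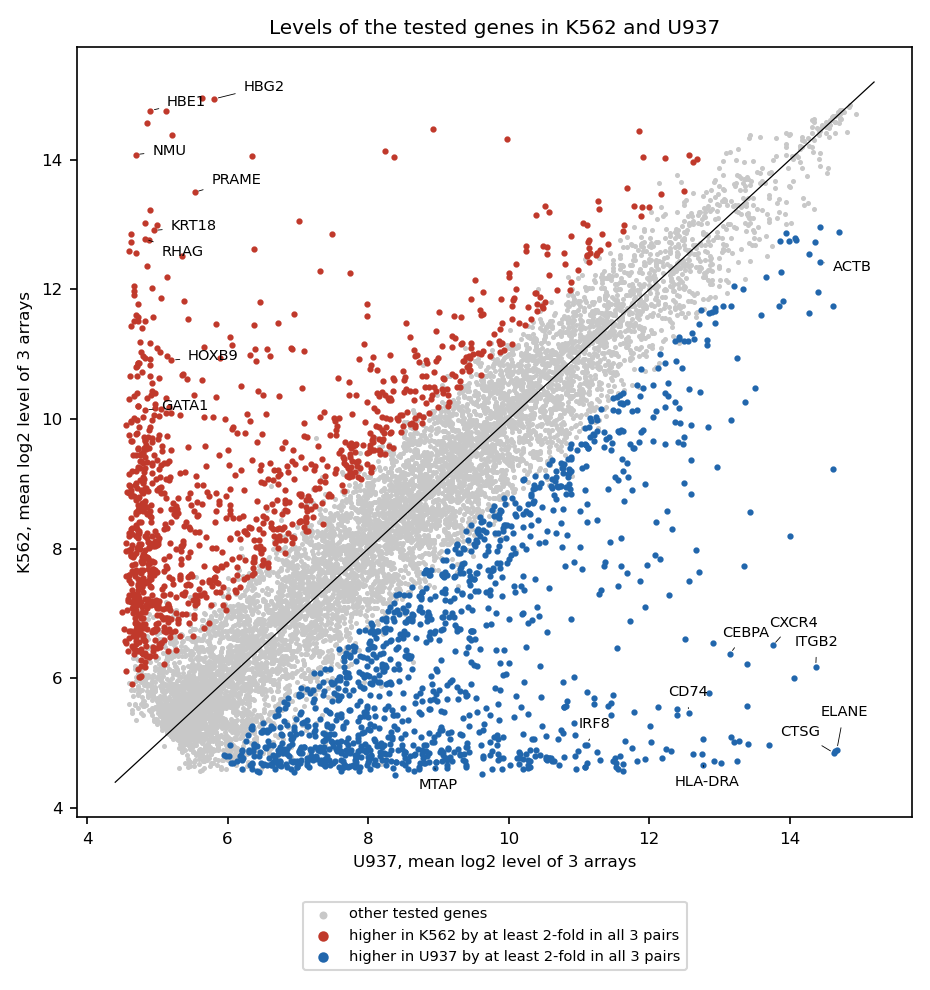
Mean log2 level of each tested gene over the 3 U937 arrays (horizontal) and the 3 K562 arrays (vertical), with red and blue points for genes at least 2-fold higher in K562 or in U937 in all 3 treatment pairs and grey for the others. The globins HBE1 and HBG2 stand at the upper left with K562 levels above 14, and CTSG and ELANE at the lower right with U937 levels above 14.

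The line labels were checked against marker genes. All 11 erythroid markers on the arrays were detected on the 3 K562 arrays, and HBZ, GATA1, ALAS2, AHSP and RHAG were undetected on every U937 array. The summed linear level of these markers was 130000 to 148000 on K562 arrays and 4410 to 8540 on U937 arrays. Such a sum weighs the most abundant genes most. The median log2 level of the erythroid markers was 12.78 in K562 and 4.92 in U937. Of the 11 erythroid markers 4 were also detected on all U937 arrays. Of 11 monocytic markers 8 were detected on all U937 arrays and 6 on all K562 arrays. Their summed level was 29700 to 42800 in U937 against 2790 to 4880 in K562, and their median log2 level 7.86 against 5.9. TLR2 and MPO were undetected on all arrays of both lines, and CD14 was detected on 2 U937 arrays. CD33 and FCGR1A were not analysed here. PF4 and GP9 of the platelet markers, and CD3D, CD3E and MS4A1 of the lymphocyte markers, were undetected in both lines. ITGA2B and ITGB3, the other platelet markers measured, were detected on all arrays of both lines. CD79A, the other lymphocyte marker measured, was detected on all U937 arrays and on no K562 array. Of 6 epithelial and stromal markers, 4 were detected on all K562 arrays and 1 on all U937 arrays, and 5 were undetected in U937.

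Globin genes had the largest median difference of the 23 lists. All 9 tested members of the globin list, which includes the chaperone gene AHSP, were higher in K562 under every treatment, with a median difference of 9.13. Embryonic epsilon-globin HBE1 stood at 14.75, 14.86 and 14.68 in K562 and at 4.74, 5.18 and 4.78 in U937. Embryonic zeta-globin HBZ stood at 14.66, 14.75 and 14.3 in K562 and was undetected in U937, a difference of at least 668-fold. The groups were far apart on every array. HBE1 was detected on 1 U937 array, so its difference of 9.86 ± 0.13 (limma adjusted p = 1.73e-08) rests partly on levels not above background. The adjusted p of HBZ was 1.87e-08.

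Fetal gamma-globins followed the embryonic genes. HBG1 was at 14.92, 14.98 and 14.98 in K562 and at 5.51, 6.28 and 5.12 in U937, and HBG2 was at 14.98, 14.92 and 14.92 against 5.61, 6.43 and 5.38. The HBG1 and HBG2 transcripts are near-identical, so their probes may share signal. HBG1 and HBG2 ranked first and second among tested genes on every K562 array, at the top of the normalized scale (14.98), where differences may be compressed. The alpha-type genes HBA1 and HBQ1 differed by 9.18 and 8.24, and HBA1 cannot be separated from HBA2, which was not analysed here. In U937, HBG2 was detected on all 3 arrays and HBG1 on 2.

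The adult beta-type genes had smaller differences. Delta-globin HBD was at 10.88, 12.25 and 10.36, and adult beta-globin HBB at 6.83, 8.64 and 6.61, and neither was detected in U937. HBB was at least 4.5-fold and HBD at least 62.9-fold higher in K562. Both K562 levels were highest on the MS-275 array. AHSP, which stabilises free alpha chains, was at 11.39, 12.11 and 11.01 in K562 and undetected in U937, at least 79.6-fold lower.

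The haem and iron genes differed less. Of 22 tested, 12 were higher in K562, 3 were higher in U937 and 7 did not pass the test, with a median difference of 0.84. Over all tested genes the shares were 28.9% and 26.9%. ALAS2, the erythroid form of the first enzyme of haem synthesis, was at 7.16, 7.78 and 6.88 in K562 and undetected in U937, a difference of at least 4.25-fold. ALAS1, the housekeeping form of the same enzyme, was higher in U937 by 1.57 on the log2 scale, as its levels of 5.18, 5.68 and 6.07 in K562 and 6.86, 7.13 and 7.66 in U937 show. The later enzymes UROD and PPOX were 4.37-fold and 3.6-fold higher in K562. ALAD and CPOX did not pass the test, with differences of 0.36 ± 0.24 and −0.05 ± 0.18.

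Iron uptake and haem breakdown were divided between the lines. TFR2, a transferrin receptor that senses iron, was 3.95-fold higher in K562, and the main transferrin receptor TFRC was 2.33-fold higher there. BLVRB, a biliverdin reductase, stood at 10.0, 10.34 and 9.98 in K562 and at 6.94, 7.7 and 7.46 in U937. The inducible haem oxygenase HMOX1, which opens the haem ring, went the other way. It was undetected on the K562 arrays and at 8.64, 9.4 and 9.46 in U937, at least 15-fold higher. Ferritin light chain FTL was near the top of the scale in both lines and did not pass the test (−0.24 ± 0.11).

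Red cell membrane and blood group genes were mostly higher in K562, 16 of 21 tested with 12 of these in all 3 pairs by 2-fold, and the median was 2.13. Of the 21, 6 were undetected in U937 and entered the test only through K562, which fixed their direction. RHAG, the Rh-associated glycoprotein, stood at 12.89, 12.99 and 12.45 in K562 and was undetected in U937, at least 192-fold lower. RHD and KEL, which carry the Rh D and Kell antigens, were at 9.38, 9.99 and 9.24 and at 9.92, 10.78 and 9.61 in K562. RHD and RHCE are near-identical, and the RHCE probe was below detection on more than 3 of the 6 arrays. The carbonic anhydrase CA1 was at least 20-fold and the water channel AQP1 at least 6.19-fold higher in K562, and the other AQP1 probe gave 0.60. Band 3 (SLC4A1), the anion exchanger, was at 7.75, 7.89 and 5.91 in K562, lowest with SAHA, against 5.16, 4.91 and 4.91.

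The list also held exceptions. STOM (stomatin) was 3.18-fold higher in U937, and CD36, a scavenger receptor of both monocytes and immature red cells, was 18.4-fold higher there. The erythropoietin receptor EPOR did not differ on average (0.13 ± 0.60, limma adjusted p = 0.87). Its K562 levels were 8.29, 7.28 and 6.49 and its U937 levels 6.59, 7.02 and 8.06. The line order of EPOR was thus K562 above U937 in untreated cells and the reverse with SAHA, and the test of that change gave an unadjusted p of 0.0602 in limma (adjusted p = 1).

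Among erythroid and megakaryocytic regulators 11 of 22 tested were higher in K562, 5 were higher in U937 and 6 did not pass. Over all tested genes 28.9% were higher in K562 and 26.9% in U937. Of the 22 regulators, 5 were undetected in U937 and entered the test only through K562, which fixed their direction. GATA1 was at 10.82, 10.91 and 8.69 in K562 and undetected in U937, at least 30.9-fold lower. Its relative GATA2 was at 9.6, 9.01 and 9.28 in K562, at least 17.3-fold above U937. GFI1B, a repressor needed for red cells and platelets, was at 9.42, 9.57 and 7.04 and at least 11.2-fold higher. On each array of these 3 genes the K562 level was above every U937 level.

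KLF1, the erythroid Krüppel-like factor, was at 9.72, 9.31 and 7.04 in K562 against 6.21, 5.76 and 5.65 in U937. TAL1 was at 8.76, 8.16 and 6.05 in K562 and undetected in U937. Its difference of 2.57 ± 0.52 passed the test (adjusted p = 0.00444) but lost the call without the MS-275 arrays (adjusted p = 0.0558), and it fell below 2-fold in the SAHA pair at 0.87. GATA1, GFI1B, KLF1 and TAL1 all had their lowest K562 level on the SAHA array. LMO2 and LYL1, which join TAL1 in its complex, did not pass the test at −0.41 ± 0.45 and −0.33 ± 0.26.

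The regulators higher in U937 included BCL11A, the repressor of gamma-globin, at 8.32, 8.12 and 7.66 against 5.37, 5.34 and 5.18 in K562. FLI1, a megakaryocytic ETS factor, was 3.41-fold higher in U937. MYB, IKZF1 and RUNX1, which act in progenitors of several lineages, were higher in U937 by 2.04-fold, 2.65-fold and 1.86-fold, and MYB stood at 13.71, 12.76 and 11.52 there. These last 3 genes lost their calls when treatment was left out of the model (adjusted p of 0.403, 0.155 and 0.0972). RUNX1 also lost it without the untreated arrays (0.0612), and its other probes gave −0.36 and 0.05.

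**Figure D2:**
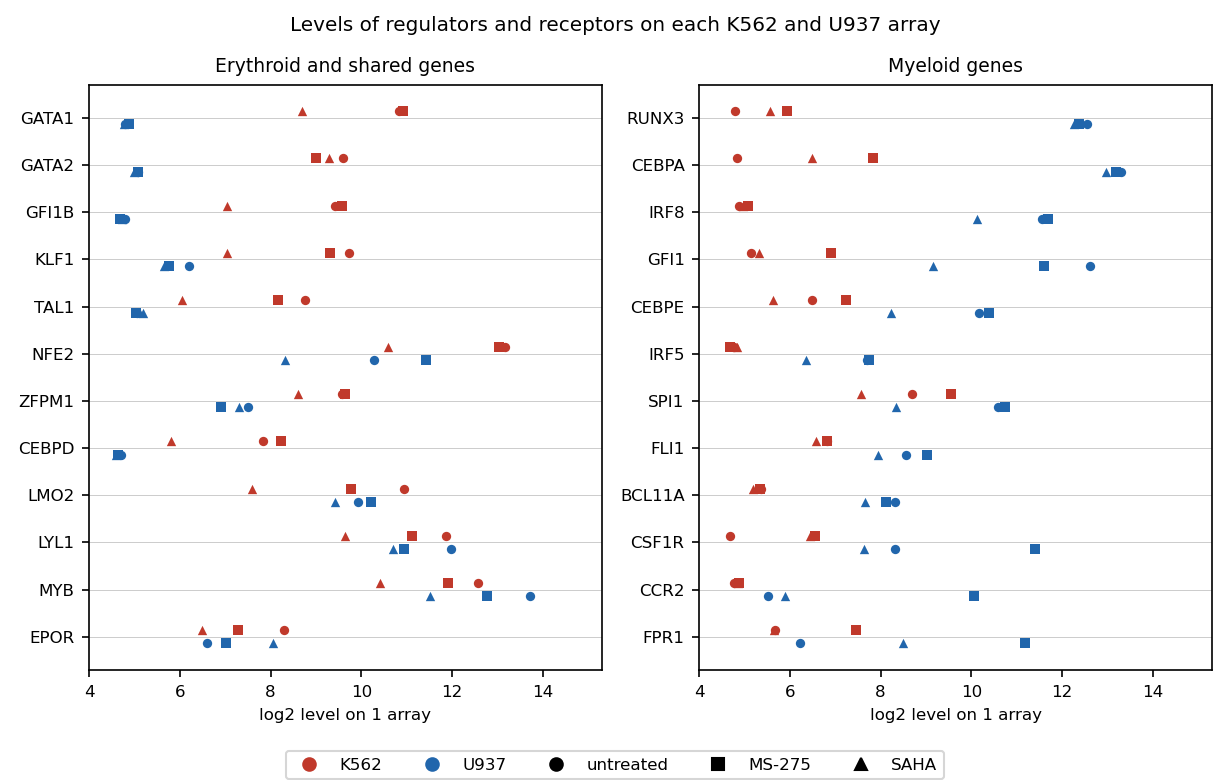
Log2 level of 12 erythroid or shared genes (left) and 12 genes of the myeloid panel (right, with FLI1 and BCL11A among them) on each array, red for K562 and blue for U937, with a circle for untreated, a square for MS-275 and a triangle for SAHA. GATA1, GATA2 and GFI1B have K562 points from 7.04 to 10.91 and U937 points near 5, RUNX3 and CEBPA have U937 points above 12, and the EPOR points of the lines change places.

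Of 15 megakaryocyte genes tested, 6 were higher in K562, 3 were higher in U937 and 6 did not pass, against 28.9% and 26.9% of all tested genes. The platelet receptor chain GP1BB stood at 14.25, 14.33 and 13.81 in K562 and at 8.57, 7.65 and 8.51 in U937, a 59.3-fold difference. Integrin alpha-IIb (ITGA2B), a classic surface marker of megakaryocytes, was at 10.05, 10.89 and 10.21 in K562 and 29.1-fold higher. ITGB3, the partner chain of ITGA2B, did not pass the test (0.34 ± 0.14). TUBB1, the platelet tubulin, was at 9.23, 8.98 and 6.02 in K562 and undetected in U937, but lost its call without the MS-275 arrays (adjusted p = 0.0557). PLEK, a protein kinase C substrate named for platelets and present in leukocytes, was 145-fold higher in U937.

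Myeloid regulators were mostly higher in U937. Of 22 tested, 14 were higher in U937 and 1 was higher in K562, and the median difference was −1. RUNX3 stood at 12.55, 12.36 and 12.27 in U937 and at 4.79, 5.94 and 5.57 in K562, a 124-fold difference with RUNX3 detected on 2 K562 arrays. The other RUNX3 probe gave −0.21, and with probes detected on all 6 arrays the call was lost (adjusted p = 0.17). CEBPA, the master factor of granulocyte and monocyte progenitors, was at 13.3, 13.19 and 12.97 in U937 and at 4.84, 7.82 and 6.49 in K562. The K562 levels of CEBPA on the inhibitor arrays were above the untreated one, which was below detection. IRF8, which directs monocyte development, was at 11.55, 11.69 and 10.12 in U937 and undetected in K562, at least 57.8-fold lower.

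GFI1 and CEBPE, both factors of granulocytic maturation, were 40.4-fold and 8.84-fold higher in U937. IRF5, a factor of inflammatory macrophages, was at least 4-fold higher there. SPI1 (PU.1) was detected on all arrays of both lines, at 10.58, 10.74 and 8.34 in U937 and at 8.68, 9.56 and 7.56 in K562, and the ranges of the lines overlapped. The SPI1 difference of −1.29 ± 0.27 passed the test (adjusted p = 0.00503) and lost its call with treatment left out of the model (adjusted p = 0.221). CEBPB, which takes part in emergency granulopoiesis, did not pass (−0.18 ± 0.25).

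The member higher in K562 was CEBPD, at 7.83, 8.24 and 5.8 and undetected in U937. Its call (adjusted p = 0.0116) was lost on the authors' log2 values (0.0508), with an offset of 50 (0.0512), without the MS-275 arrays (0.108) and without the treatment term (0.0612).

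Granule and lysosomal genes were mostly higher in U937. Of 29 tested, 26 were higher in U937 and 3 in K562, and the median was −2.29. Cathepsin G (CTSG) stood at 14.65, 14.62 and 14.62 in U937 and was undetected in K562, at least 659-fold lower. Neutrophil elastase (ELANE) was at 14.67, 14.61 and 14.74 in U937 and at least 679-fold higher. Proteinase 3 (PRTN3) and azurocidin (AZU1), neighbours of ELANE, were at 13.21, 13.55 and 13.07 and at 13.11, 13.35 and 13.02 in U937. AZU1 was detected on 1 K562 array, and ELANE, PRTN3 and CTSG on none.

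Smaller and larger gaps followed. RNASE2, a ribonuclease of eosinophils and monocytes, was at least 180-fold higher in U937, and CST7, a cystatin that inhibits cathepsins, 265-fold higher. TPSB2, a mast cell tryptase outside the list, stood at 14.57, 14.72 and 14.64 in U937 and was undetected in K562. Its probe may not separate near-identical tryptase genes. Lysozyme (LYZ) was expressed in both lines, at 13.25, 13.42 and 12.83 in U937 and at 9.86, 10.45 and 9.65 in K562.

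The calprotectin gene S100A8 and the cathelicidin gene CAMP were undetected in K562, and in U937 both were highest with MS-275, at 10.32 and 9.74 against 6.78 and 7.12 in untreated cells. The granule members higher in K562 were PRG2 (6.95-fold), an eosinophil granule protein, and the tetraspanins CD53 (2.04-fold) and CD63 (1.68-fold). The CD53 call was lost without the untreated arrays (adjusted p = 0.0698), without the MS-275 arrays (0.0623) and without the treatment term (0.0844).

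Receptors of monocytes and phagocytes were higher in U937 for 34 of 45 tested and higher in K562 for none, with 11 that did not pass and a median of −2.33. The inhibitory receptor SIRPA, which reads CD47, was at 13.79, 13.84 and 12.62 in U937 and undetected in K562, at least 284-fold lower. The beta-2 integrin chain ITGB2 was at 14.3, 14.54 and 14.27 in U937 and at 5.71, 6.53 and 6.29 in K562. Its alpha partners ITGAL and ITGAM were higher in U937, ITGAL by at least 7.64-fold and ITGAM by 5.67-fold with 2 of 3 K562 arrays detected, and ITGAX did not pass (−0.08 ± 0.14). The chemokine receptor CXCR4 was 152-fold higher in U937, and the Fc receptor gamma chain FCER1G at least 108-fold.

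Growth factor receptors of the myeloid line showed smaller gaps. CSF3R and CSF2RA, the receptors of G-CSF and GM-CSF, were at least 6.74-fold and 9.23-fold higher in U937. The macrophage receptor CSF1R was at 8.32, 11.39 and 7.64 in U937 and at 4.69, 6.56 and 6.45 in K562, with the peak on the MS-275 array. The leukocyte antigen PTPRC (CD45) and the lysosomal marker CD68 did not pass the test (−0.11 ± 0.28 and −0.13 ± 0.12). PTPRC was dim, at 6.49, 5.96 and 5.58 in K562 and at 5.81, 6.44 and 6.12 in U937. The lowest detected levels on these arrays were 5.16 to 5.3. The other PTPRC probe gave −0.49. CD68 was high in both lines, at 10.46, 11.34 and 10.7 in U937 and between 10.46 and 11.16 in K562. CD14, the lipopolysaccharide co-receptor, did not pass (−0.57 ± 0.42).

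The phagocyte oxidase and leukocyte signalling list was higher in U937 for 37 of 42 tested, with a median of −2.38, and for 32 of these in all 3 pairs by 2-fold. Of the 42, 9 were undetected in K562 and entered the test only through U937, which fixed their direction. The cytosolic oxidase subunits NCF4 and NCF1 were undetected in K562 and at least 38.5-fold and 15.4-fold higher in U937, and NCF1 has near-identical pseudogenes. The membrane subunit CYBB did not pass (−1.2 ± 0.45), with U937 levels of 6.02, 8.35 and 5.7. Coronin-1A (CORO1A), an actin regulator of leukocytes, was 33.6-fold and the phosphatase SHP-1 (PTPN6) 18.9-fold higher in U937, but the other PTPN6 probe gave 0.19. The other NCF4 probe gave −0.82. The kinases LYN and BTK were well expressed in both lines, and LYN was 1.59-fold higher in U937 while BTK did not pass (−0.3 ± 0.19). CARD9 was the member higher in K562, by 0.54 ± 0.18, and its call was lost without any 1 of the 3 treatments (adjusted p from 0.0626 to 0.13).

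Eicosanoid enzymes divided along the leukotriene pathway. ALOX5AP, which presents arachidonic acid to 5-lipoxygenase, was at 12.73, 13.74 and 13.29 in U937 and undetected in K562, at least 254-fold lower. ALOX5, the 5-lipoxygenase itself, was higher in K562, at 8.57, 10.14 and 9.61 against 5.61, 6.47 and 5.53. LTC4S, which makes leukotriene C4, and the phospholipase PLA2G4A were at least 14.5-fold and 9.62-fold higher in U937. In all, 6 of 11 tested were higher in U937 and 2 in K562.

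Antigen presentation genes were lower in K562. For class II, 11 of 12 tested were higher in U937 and none in K562, with a median of −5.41. HLA-DRA was at 12.7, 12.95 and 12.64 in U937 and undetected in K562, at least 181-fold lower. The invariant chain CD74 was at 12.39, 12.74 and 12.55 against 5.37, 5.62 and 5.42, and its other probe gave −2.10. Several HLA-DRB genes were called, but their probes may cross-hybridise, so their count is uncertain. CIITA, the class II transactivator, was undetected in K562 and at 5.39, 7.36 and 5.76 in U937.

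For class I, 12 of 16 tested were higher in U937 and none in K562, with a median of −0.79. HLA-B was at 13.06, 13.31 and 13.25 in U937 and at 4.8, 4.93 and 5.33 in K562, where it was detected on 1 array. HLA-C was at least 11.9-fold and the immunoproteasome subunit PSMB8 48.8-fold higher in U937. Beta-2 microglobulin (B2M), the shared light chain, was abundant in both lines and differed by 1.65-fold. HLA-E in K562 was at 8.68, 10.02 and 10.31, and thus higher on both inhibitor arrays than on the untreated one, against 11.73, 12.17 and 12.26 in U937.

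Interferon-stimulated genes were divided between the lines. Of 33 tested, 18 were higher in U937 and 7 higher in K562, with a median of −0.75. Over all tested genes 26.9% were higher in U937 and 28.9% in K562. Of the 33, 8 entered the test only through U937 and 2 only through K562, which fixed their directions. The stricter set held 7 of the 33 towards U937 and 5 towards K562. IFITM3 and IFITM1, membrane proteins that block viral entry, were higher in K562. IFITM3 stood at 11.24, 11.84 and 11.19 in K562 and was undetected in U937, at least 75.4-fold lower, and IFITM1 was 65.9-fold higher. Among the genes higher in U937 were the RNA sensor IFIH1 (4.69-fold) and the oligoadenylate synthetase OAS2 (at least 1.92-fold). IFIT1, which binds viral RNA, was 5.01-fold higher in U937, with levels of 6.1, 7.88 and 8.11, and was detected on 1 K562 array. IFIT2 and OASL also passed, but lost their calls without the MS-275 arrays (adjusted p of 0.0621 and 0.0828). IFIT2 lost it without the SAHA arrays as well (0.0782), and both lost it without the treatment term (0.1 and 0.0514).

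The HOXB cluster, homeobox genes that mark position and progenitor state, was higher in K562 for HOXB2 to HOXB9. HOXB9 stood at 11.26, 11.3 and 10.17 in K562 and at 5.32, 5.11 and 5.15 in U937. HOXB8, HOXB7, HOXB4 and HOXB2 were undetected in U937 and at least 23.8-fold, 23-fold, 12.7-fold and 12.2-fold higher in K562. HOXB5 was 9.32-fold, HOXB6 2.06-fold and HOXB3 at least 1.26-fold higher. HOXB13, at the far end of the cluster, was undetected in both lines. The cofactors MEIS1 and PBX3 went the other way, 3.88-fold and 4.58-fold higher in U937, while MEIS2 was at least 10.4-fold higher in K562. HOXA9 was not analysed here.

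On chromosome 9, CDKN2A, which encodes the tumour suppressors p16 and p14ARF, was undetected in K562 and at 8.47, 9.0 and 8.48 in U937. MTAP, a methionine salvage enzyme next to it, was undetected in K562 and at 9.1, 8.83 and 8.92 in U937. KLHL9 and FOCAD, further along, were likewise undetected in K562 and at least 8.27-fold and 5.87-fold higher in U937. HACD4 and MLLT3, which flank FOCAD in gene order, were detected in all arrays of both lines. HACD4, which lies between FOCAD and KLHL9, was 1.47-fold higher in K562, and its call was lost without the untreated arrays (adjusted p = 0.0862), without the treatment term (0.0968) and with equal medians (0.0722). MLLT3 did not pass (0.05 ± 0.11). The interferon genes between these members were undetected in both lines, so they give no information. NB4 was also below detection for MTAP and CDKN2A, but not for KLHL9 and FOCAD. DNA copy number was not measured here.

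**Figure D3:**
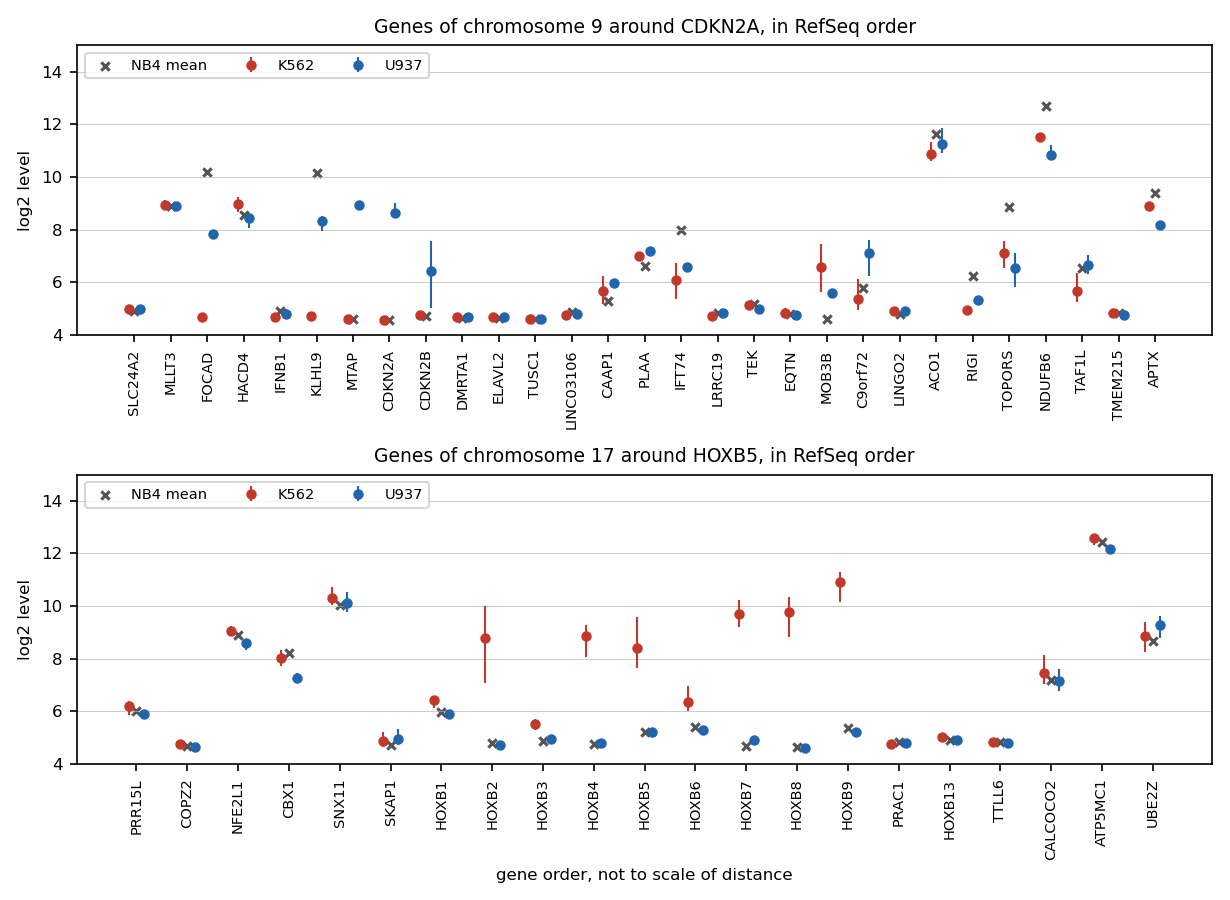
Mean log2 level (points) with the lowest and highest of 3 arrays (bars) for K562 in red and U937 in blue, and the NB4 mean as a cross, for genes in RefSeq order around CDKN2A (top, most interferon genes left out) and HOXB5 (bottom). FOCAD, KLHL9, MTAP and CDKN2A sit below 5 in K562 and from 7.82 to 8.95 in U937, and HOXB2 to HOXB9 are higher in K562.

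Genes of BCR-ABL1 and JAK-STAT signalling went both ways, with 12 of 27 tested higher in K562 and 8 higher in U937. Over all tested genes these shares were 28.9% and 26.9%, and the U937 count is near its share. ABL1 was at 11.58, 11.65 and 11.53 in K562 and at 9.6, 8.96 and 9.08 in U937, a 5.18-fold difference, while the other ABL1 probe gave 0.01 on the log2 scale. The adaptor CRKL, a main substrate of the fusion kinase, was 3.89-fold higher in K562. The brightest of 3 BCR probes was lower in K562, at 6.13, 6.3 and 5.98 against 6.93, 6.63 and 6.91, and its call was lost without the untreated or the SAHA arrays (adjusted p of 0.0658 and 0.0525). The other BCR probes gave 0.20 and −1.12, so the direction for BCR is not settled. Whether the ABL1 or BCR probes read the fusion transcript was not tested. The STAT5 target SOCS2 was 5.32-fold higher in K562, and SPRED1, an inhibitor of RAS signalling, at least 20.5-fold. The ERK phosphatases DUSP4 and DUSP6 were undetected in K562 and at least 14.6-fold and 2.64-fold higher in U937, and the other DUSP4 probe gave −2.30.

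Apoptosis regulators were higher in K562 for 5 of 28 tested and higher in U937 for 11, with 12 that did not pass and a median of −0.19. Over all tested genes these shares were 28.9% and 26.9%. BCL2, the founding survival factor, was at 7.73, 8.28 and 8.32 in U937 and at 6.28, 6.19 and 5.97 in K562, but the other BCL2 probe gave 0.15. BCL2L1 (BCL-XL) did not pass, at −0.06 ± 0.19, and its levels were 11.55, 11.41 and 9.72 in K562 and 11.18, 11.5 and 10.17 in U937. BIRC5 (survivin) was 4.11-fold higher in K562, and the initiator caspase CASP8 2.67-fold and the BH3-only gene BCL2L11 (BIM) 2.23-fold higher in U937. The other probes of CASP8 and BCL2L11 gave −0.89 and −0.39.

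Cell cycle genes were close to balance, with 9 of 38 tested higher in K562, 10 higher in U937 and a median of −0.09. Both counts are near the shares over all tested genes, 28.9% and 26.9%. The Cip/Kip inhibitor CDKN1C was at 8.23, 9.64 and 9.65 in K562 and 14.5-fold above U937, where it was detected on 1 array. RB1, the retinoblastoma gene, was at 7.96, 8.23 and 8.73 in U937 and 4.03-fold above K562. The replication genes MCM3 and PCNA were 3.23-fold and 2.55-fold higher in U937. CDKN1A (p21) did not pass (−0.51 ± 0.30), and it was at 9.29, 11.91 and 11.79 in K562 and 8.83, 12.63 and 13.06 in U937. The inhibitor arrays were the higher ones in both lines.

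Of the zinc-dependent deacetylases, the family that holds the targets of both drugs, 2 of 7 tested were higher in K562 and 2 in U937. Which members each drug inhibits was not tested. These counts are near the shares over all tested genes, 28.9% and 26.9%. HDAC1 was at 13.23, 13.26 and 13.32 in K562 and at 13.31, 13.18 and 13.42 in U937 and did not pass (−0.03 ± 0.12). HDAC3 did not pass either (0.21 ± 0.14). HDAC2 was 1.48-fold higher in U937, and its call was lost without the untreated (adjusted p = 0.11) or the MS-275 arrays (0.0788). The HDAC2 call was also lost without the treatment term (0.0514). HDAC4 was at least 1.65-fold higher in K562 and HDAC8 2.78-fold higher in U937. The HDAC11 call, towards K562, was lost without the untreated or the MS-275 arrays (0.0851 and 0.222). It was also lost with equal medians (0.0904), no detection filter (0.0751), the 6 arrays alone (0.0749) and no treatment term (0.241).

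Cancer-testis genes, silent in most adult tissues outside the germ line, were higher in K562 for 26 of 27 tested, 23 of them in all 3 pairs by 2-fold, and the median was 3.66. Of the 27, 20 were undetected in U937 and entered the test only through K562, which fixed their direction, and 22 of the 49 listed members were not tested. PRAME was at 13.71, 13.65 and 13.15 in K562 and at 5.43, 5.55 and 5.62 in U937, and its other probe gave a difference of 2.49. PAGE5 and MAGEB2 were undetected in U937 and at least 191-fold and 111-fold higher in K562, but the other PAGE5 probe gave a log2 difference of 0.33. GAGE12J was at 14.74, 14.78 and 14.73 in K562, but GAGE copies are near-identical and their probes cannot be told apart. The same holds for pairs such as MAGEA3 with MAGEA6. MAGED2, which is expressed widely, was the exception, 2.33-fold higher in U937 by its brightest probe and between −0.06 and −1.09 on the log2 scale by the others.

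Of 8 epithelial and stromal genes tested, 5 were higher in K562 and 2 in U937, and the 5 were undetected in U937 and so entered the test only through K562. Keratins KRT18, KRT19 and KRT8 were at 12.69, 13.05 and 12.99, at 11.68, 12.34 and 11.73 and at 11, 11.93 and 11.6, and all 3 genes were undetected in U937. The KRT18 difference was at least 211-fold by its brightest probe and 1.78 and 3.49 on the log2 scale by 2 other probes. The adhesion molecule EPCAM was at least 23.1-fold higher in K562, whereas E-cadherin (CDH1) was 1.62-fold higher in U937, at 5.59, 5.65 and 5.94, and was detected on 1 K562 array. The CDH1 call was lost without the untreated (adjusted p = 0.0631) or the SAHA arrays (0.116). PECAM1, an adhesion molecule of endothelium and also of leukocytes, was at 9.28, 10.39 and 8.51 in U937 and 7.96-fold above K562. Collagen COL1A1 was at 5.97, 8.53 and 8.57 in K562 and undetected in U937. DCN did not pass, and COL1A2, LUM, PDGFRB and VWF were not detected often enough to be tested.

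Some lymphocyte genes were expressed in U937. NKG7, of natural killer and cytotoxic T cells, was at 12.99, 13.1 and 12.97 in U937 and undetected in K562, at least 216-fold lower. CD79A and BLNK, of the B cell receptor pathway, were at least 17.6-fold and 4.52-fold higher in U937. CD79A peaked with MS-275 at 10.89, against 9.19 in untreated cells, and its other probe gave −1.16. Perforin (PRF1) was 3.95-fold higher in K562, a call lost without the treatment term (adjusted p = 0.0541). Of the 11 tested, 5 were higher in U937 and 1 in K562, against 26.9% and 28.9% of all tested genes. Of the 11, 4 were undetected in K562 and entered the test only through U937, which fixed their direction. Among the list members detected too rarely to be tested, CD3D, CD3E and MS4A1 were undetected in both lines.

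Of the reference genes, 3 of 13 tested were higher in K562 and 5 in U937. Quantile normalization gave all arrays the same distribution, so these genes are not an independent check of scale. The shares over all tested genes were 28.9% and 26.9%. EEF1A1 and TUBA1B differed by −0.02 ± 0.11 and 0.01 ± 0.11, and GAPDH by −0.15 ± 0.12, and none of these passed. Beta-actin (ACTB) was 4.02-fold higher in U937, at 14.5, 14.35 and 14.43 against 12.25, 12.52 and 12.49.

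Several of the largest differences lay outside the lists. NMU, the neuropeptide neuromedin U, was at 14.08, 14.15 and 14.02 in K562 and at least 476-fold above U937. CAVIN1, a coat protein of caveolae, and LAPTM4B, a lysosomal membrane protein, were at least 261-fold and 229-fold higher in K562. ALDH1A2, which makes retinoic acid, was at least 223-fold and CMBL, a hydrolase, at least 168-fold higher. Cathepsin L (CTSL) was at least 186-fold higher by its brightest probe and 3.32 on the log2 scale by another. In U937, the antioxidant enzyme GPX1 was at least 347-fold higher by its brightest probe, yet the other probe gave a difference of −1.64. LAMP5, a lysosome-associated protein of dendritic cells and neurons, was at least 201-fold higher in U937. Of 237 genes in the stricter set with more than 1 probe, 121 had every other probe at least 2-fold the same way and 1 had a probe 2-fold the other way.

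**Figure D4:**
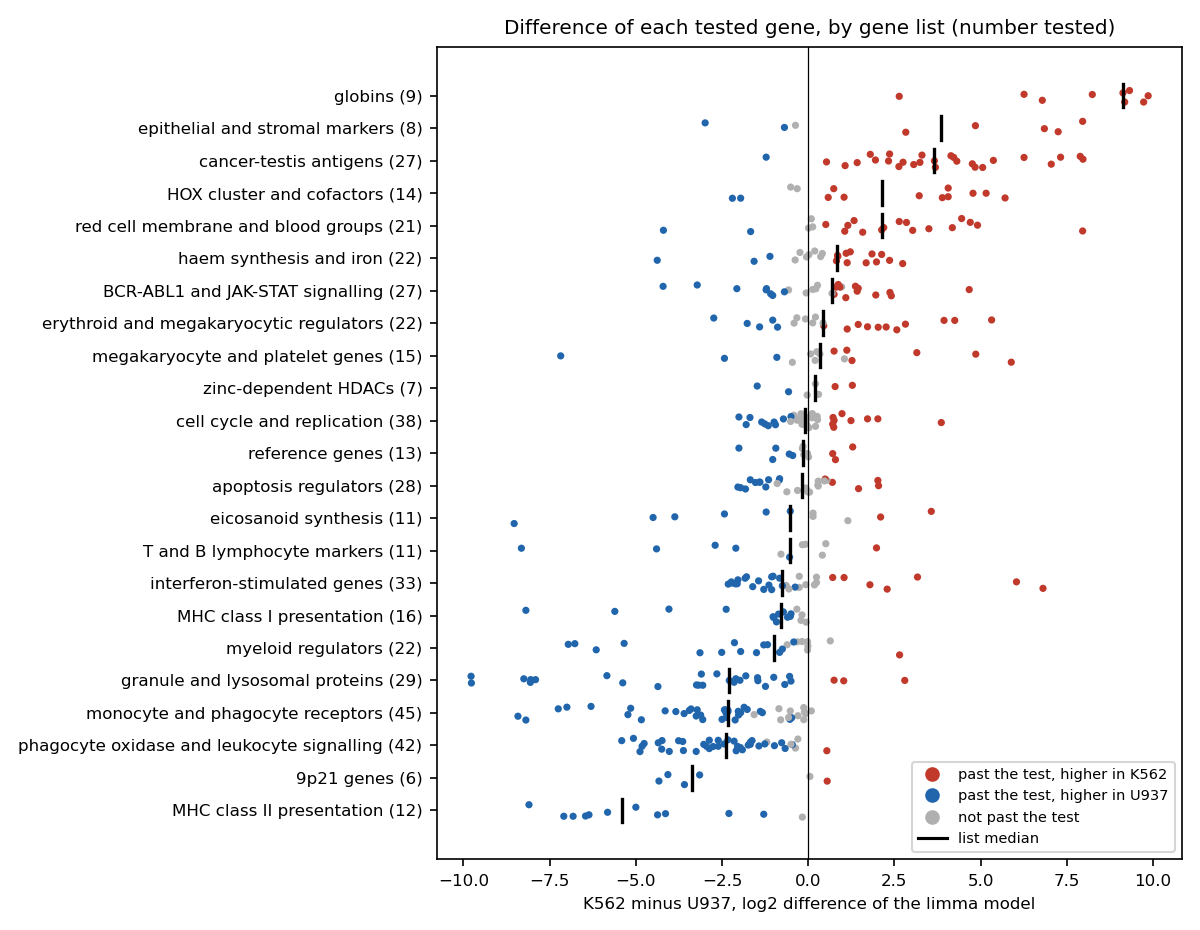
K562 minus U937 log2 difference of every tested gene in 23 lists, 1 point per gene, red or blue where the limma adjusted p was under 0.05 and grey where it was not, with a black bar at each list median. Globins lie at the right with a median of 9.13 and class II genes at the left with a median of −5.41, and the cell cycle and reference lists straddle 0.

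The difference between the lines was then compared between treated and untreated cells. The change of the difference passed the test for 0 of 10766 genes (0%) in limma, and 155 genes had an unadjusted p under 0.05. These 155 are a smaller share of the genes than 0.05, so they do not stand out as a group. The difference between the inhibitors is the residual of this test. The test had 3 residual degrees of freedom and a median standard error of 0.54 per gene, against a median absolute change of 0.25. By size alone, the line difference moved by at least 2-fold for 584 genes. The data therefore give no gene whose line difference is shown to depend on treatment, and do not show that none does.

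Some genes with a role in the lineages had pair differences far apart. CCR2, the monocyte chemokine receptor, differed by −0.76 in untreated cells, −5.19 with MS-275 and −1.05 with SAHA, as its U937 levels were 5.52, 10.05 and 5.9. The formyl peptide receptor FPR1 differed by −0.56, −3.74 and −2.84, and TREM1, an activating receptor, by −0.58, −4.18 and −2.22. CEBPA differed by −8.46, −5.37 and −6.49. The regulators GATA1, GFI1B and KLF1 differed least with SAHA, at 3.92, 2.32 and 1.4, against 6.02, 4.63 and 3.51 in untreated cells. None of these changes passed the test (adjusted p = 1 for each). RGS16, a regulator of G protein signalling named after its values were seen, had the lowest unadjusted p of 0.000475, with differences of −3.87, −0.57 and −0.66. BAMBI, a decoy receptor of TGF-beta named likewise, differed by −1.44 in untreated cells and by 2.67 and 2.04 with the inhibitors.

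**Figure D5:**
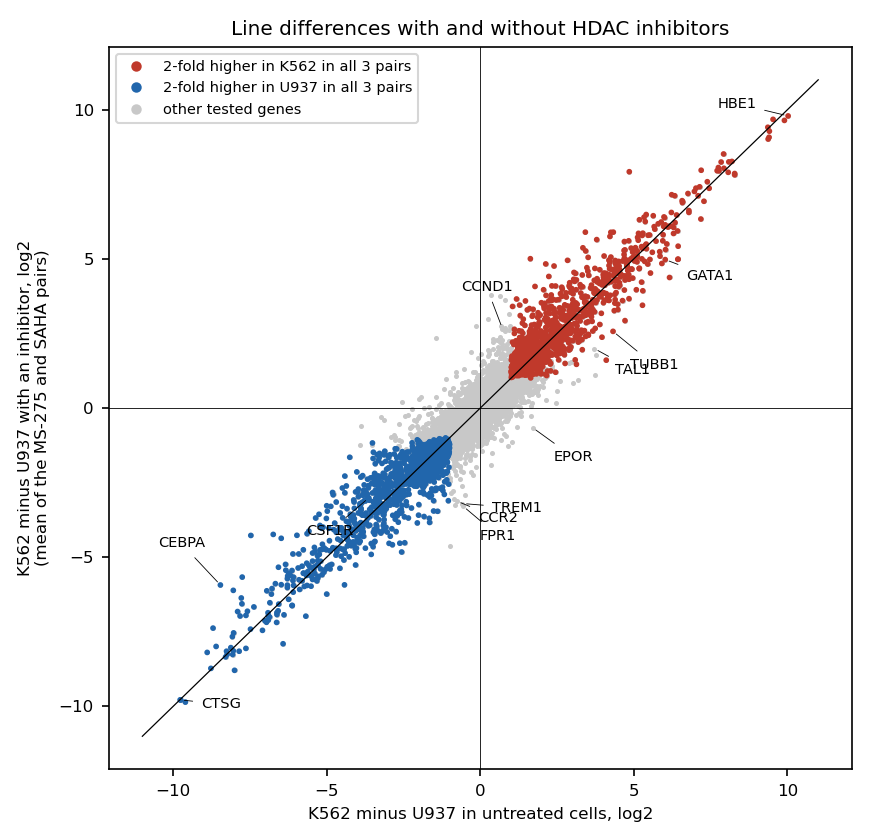
K562 minus U937 log2 difference of each tested gene in untreated cells (horizontal) and with an inhibitor (vertical, mean of the MS-275 and SAHA pairs), coloured where the difference was at least 2-fold in all 3 pairs. Points follow the diagonal, HBE1 and CTSG lie at its ends, and CCR2, FPR1, TREM1 and EPOR lie below it.

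NB4 served to place the differences. Of the 1091 genes of the stricter set higher in K562, the mean NB4 level was nearer to U937 for 748 and nearer to K562 for 343. Of the 1193 higher in U937, it was nearer to U937 for 635 and nearer to K562 for 558. A total of 585 genes were detected on all K562 arrays and on no U937 array, and 337 of these were undetected in NB4 as well. In the other direction there were 620 genes, of which 181 were undetected in NB4 and 256 were detected on all 3 of its arrays. NB4 reached 13.11 for CTSG and 11.01 for CEBPA, and 4.75 for HLA-DRA and 5.56 for ELANE. These are counts and levels, with no test.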

How the data were processed

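RNA of K562, U937 and NB4 cells was labelled as biotinylated cRNA for Illumina arrays, as the labels' protocols state. The authors deposited, for each probe, a linear intensity that is neither background-corrected nor normalized, as the values show, and a detection p-value, also deposited by the authors, in steps of 1/708. The table of log2 values, also deposited, was produced in lumi, going by the submitters' processing notes. These log2 values equal the quantile-normalized log2 intensity within 0.001 for all 199593 values, so no background was removed. Array median intensities were 104.3 to 138.6, and the number of arrays limits the precision. The intensity table and this table were joined by matching each probe on its 9 such values. The platform annotation gave 1 symbol for 19708 of 22177 probes, several for 0 and none for 2469.

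Intensities were corrected with nec of limma 3.58.1 (R 4.3.3, offset 16), quantile-normalized and log2-transformed, and the brightest probe stood for a gene. The offset makes differences of dim genes smaller. The limma model held cell line and treatment over all 9 arrays (4 residual degrees of freedom), with two-sided p-values adjusted by Benjamini and Hochberg over all genes tested. Errors after ± are standard errors of this model. Treatment was a block because arrays of K562 and U937 under the same treatment deviated together from their line means (correlations 0.558, 0.518 and 0.636). The labels number every array as replicate 1, and no slide or date is given, so a batch could not be tested. Treatment dependence was tested with line by treated state, where the difference between inhibitors is the residual. Where a gene was undetected on all arrays of a line, "at least" folds compare the mean of the higher line with, on each array of the lower line, the larger of the gene's own level and the lowest level detected there.

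Named genes were the 15 with the largest difference each way within the stricter set, detected on all arrays of the higher line, up to 5 per list each way, and textbook members of the lists. Other list members, many of them past no test, were named after their values were seen, to show exceptions. The members and the 23 lists were chosen with earlier results of these data known, so list counts are descriptions. Genes linked to X inactivation or on the Y chromosome are not named. Alternatives covered background, offset, scaling, detection filter, probe choice, arrays in the model, treatment term, variance trend and leaving out each treatment. The procedure was tested on simulated data. For treatment dependence the simulated arrays held no difference between the inhibitors, so they do not show how often that test misses a change.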

Additional observations from a re-analysis of the deposited data

How the results depend on the processing

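The count of genes past the test (6004) ranged from 5698 to 6133 under the series' own log2 values, an offset of 50, equal medians, no detection filter, averaged probes, the 6 arrays alone and a variance trend. Restricting to probes detected on all 6 arrays tested 8151 genes and called 4315, and it left 1202 genes 2-fold apart in every pair, 566 towards K562 and 636 towards U937, with 197 listed genes called in place of 360. Genes silent in 1 line leave by construction, and the medians of the HOX, 9p21, lymphocyte and epithelial lists then change sign, to −1.96, 0.30, 0.12 and −0.61. No HOX gene remains in the HOX list, whose median rests on PBX2, MEIS1 and PBX3. The 9p21 median rests on HACD4 and MLLT3, and the epithelial median on PECAM1 and another KRT18 probe. These signs therefore do not bear on the genes that left. Without the pairing by treatment (no block) 3830 genes passed, 1969 towards K562 and 1861 towards U937, and 2170 of the 2284 stricter genes remained. Leaving out the arrays of 1 treatment gave 4566 to 5150 genes past the test and 2509 to 2710 in the stricter set, which then rests on 2 pairs. Equal medians moved the median of all genes from 0.05 to −0.06 and the share of calls towards K562 from 51.7% to 43.1%, so differences near 0.1 have no settled direction. Treatment dependence gave 0 calls in all 10 models tried, with 62 to 446 unadjusted p-values under 0.05. Of 183 genes followed through 2101 recomputed values, 0 reversed and 34 lost a call at least once (78 values). Among all genes past the test, 2 were called the other way with probes detected on all 6 arrays, and 4 with averaged probes. Signal near background limits 585 and 620 differences to lower bounds.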

Other observations

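The line differences were uneven along the genome. Of 180 tested genes of chromosome 13, 32.8% were in the stricter set higher in U937, against 11.1% of all tested genes, and 4.44% were in the set higher in K562. The median difference over chromosome 13 was −0.79, and RB1 is 1 of its genes. Chromosome 20 was next, with 22% of 322 tested genes in the U937 set, 5.9% in the K562 set and a median of −0.48. The X chromosome had the highest share in the K562 set, 19.9% of 376 tested genes, with a median of 0.08, and it holds many of the MAGE, GAGE, PAGE and SSX genes. Genes of 1 chromosome are not independent, DNA copy number was not measured here, and these shares were looked at after the data had been seen.

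In RefSeq order, 26 runs of at least 4 neighbouring tested genes lay in the stricter set with the same direction, 15 towards K562 and 11 towards U937. The longest held 10 genes of chromosome 22 from CRKL to PPIL2, all higher in K562. CRKL differed by 1.96, LZTR1 by 2.10, HIC2 by 4.52 and PPIL2 by 1.52. A run of 5 genes ending in PRAME lies further along the same chromosome, with PPM1F at 1.22 and TOP3B at 2.39. A run of 7 histone genes of chromosome 6 and the beta-globin cluster with OR51B4 and OR51B5 were also higher in K562. OR51B4 and OR51B5 are olfactory receptor genes beside the globins, at 5.34 and 2.72. Towards U937 the longest run held 6 genes of chromosome 20, from CST7 to ABHD12. Neighbours in gene families can share probe signal.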
